A study of Mus musculus with 4 samples.

Results

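The genes described here encode the core machinery of programmed cell death: the Bcl2 family, the caspases, the proteins that mitochondria release, and the inhibitors that hold caspases in check. They were chosen as the rows of the count table whose gene name is on a list of 39 names, and all 39 were found among 24421 rows. RNA came from lymphatic endothelial cells, which line lymphatic vessels, sorted from mouse lungs by GFP and the endothelial protein CD31, and by absence of the leukocyte protein CD45, at postnatal day 0. Jun-Ctrl animals were Prox1-CreER;Junf/+;Rosa26-mTmG and Jun-cKO animals were Prox1-CreER;Junf/f;Rosa26-mTmG, so both carried the tamoxifen-dependent Cre recombinase driven by Prox1, the reporter, and at least 1 floxed Jun allele. The series' design text names Prox1-GFP lungs instead, and the timing of tamoxifen is not given in the sources used here. Each group had 2 libraries (n = 2 throughout), and each group's cells were pooled from 3 to 5 mice. Since nothing says that the 2 libraries of a group came from separate sorts, p-values reflect no more than the library-to-library spread, and that spread may be technical.

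In the mitochondrial route of apoptosis, anti-apoptotic Bcl2 proteins restrain the pore-forming proteins Bax and Bak1, and BH3-only proteins relieve that restraint. Cytochrome c that leaves the mitochondrion then joins Apaf1 in the apoptosome, which activates Casp9 and, through it, the executioner caspases. Death receptors act through Casp8, which Cflar blocks, and inhibitor of apoptosis proteins (IAPs) bind caspases or mark them for degradation. Endothelial cells depend on this balance when vessels grow and are pruned.

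Total counts were 16037416 and 6483514 in Jun-Ctrl replicates 1 and 2 and 15558476 and 6911821 in Jun-cKO replicates 1 and 2, where replicate 2 is the library whose title carries the word replicate. Levels are given as CPM, read counts scaled to library size with the trimmed mean of M-values, and a floor of 3 counts equalled 0.182 to 0.459 CPM. The targeted gene Jun stood at 472 and 433 CPM in Jun-Ctrl and at 524 and 475 CPM in the Jun-cKO libraries (log2 fold change 0.14, SE 0.12, Benjamini-Hochberg adjusted p = 0.354 in the quasi-likelihood test of edgeR). After a correction for transcript GC content it passed as higher (log2 fold change 0.39, adjusted p = 0.00492). It did not fall, so the group is called by its label below and every direction rests on that label. The lymphatic markers Lyve1, Mmrn1 and Reln were at 1562 CPM or more in every library. The chemokine gene Ccl21a had 0 counts in all 4, but counting can drop reads shared between gene copies, so this does not show absence. Of 9 tested lymphatic markers, Lyve1, Mmrn1 and Reln were called higher in the libraries labelled Jun-cKO, and Flt4 and Itga9 lower. Prox1 was at 39.3 and 43.6 CPM in Jun-Ctrl against 34.2 and 31.9 CPM and was not called. Of 18 lung epithelial markers all 18 were called lower in the libraries labelled Jun-cKO, and of 14 tested leukocyte markers 12 were called lower and 1, Gzma, higher. The summed epithelial level was 1999.6 and 2084 CPM in Jun-Ctrl against 226 and 217 CPM, and its part in the results below was not tested.

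Of the 39 genes, 36 passed the filter on low counts and were tested. At an adjusted p under 0.05, 8 rose and 8 fell in the libraries labelled Jun-cKO, and 20 did not pass. The 16 called genes are 44.4% of those tested, beside 41.5% of all 12656 tested genes, so the machinery as a whole was called about as often as other genes. By direction the shares were 22.2% higher beside 19% of all genes, and 22.2% lower beside 22.5%. The median log2 fold change was -0.025 over the 36 genes and 0.005 over all tested genes, and the median size of a change was 0.36 and 0.35. In 27 of the 36 genes (75%) the 2 groups did not overlap, beside 71.3% of all tested genes. The rises comprised Casp2, Casp8, Casp4, Apaf1, Cycs, Aifm1, Birc2 and Bbc3, and the falls Bcl2l1, Bcl2a1a, Bcl2a1b, Bad, Bik, Bmf, Htra2 and Birc6. Whether the roles differ from one another was not tested. The counts of higher and lower genes were 5 and 4 on leaving out Jun-Ctrl replicate 1, 4 and 3 with the other control left out in its place, and 7 and 4 without the labelled Jun-cKO replicate 2.

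**Figure D1:**
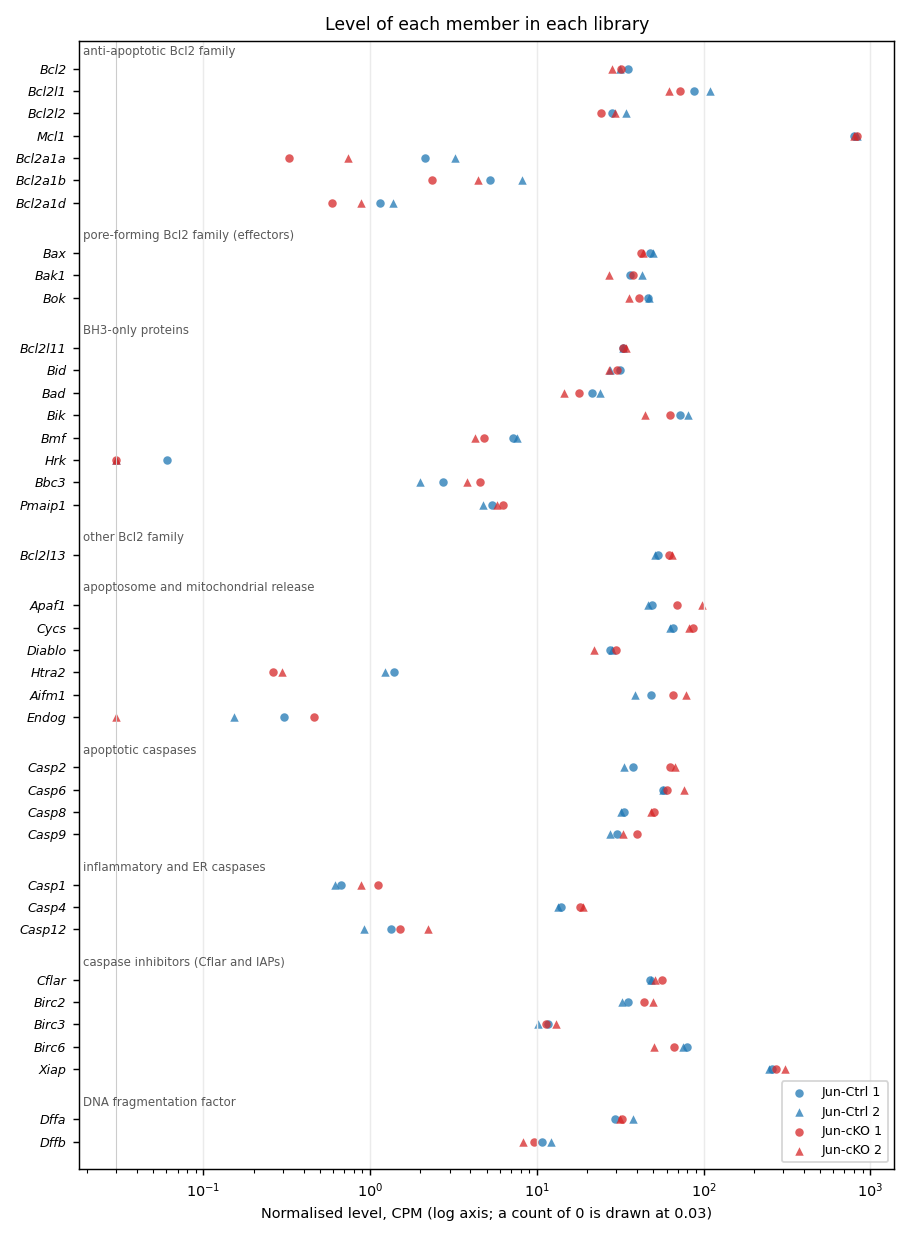
Normalised level of each of the 39 genes (CPM, log axis) in the 4 libraries, grouped by role, with circles for replicate 1 and triangles for replicate 2, and blue for Jun-Ctrl and red for the libraries labelled Jun-cKO. Mcl1 lies between 796 and 836 CPM, while Hrk, Endog, Htra2 and Casp1 lie near or under 1 CPM.

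Mcl1, a short-lived anti-apoptotic protein, gave by far the most abundant transcript of the 39. It stood at 798 and 836 CPM in Jun-Ctrl and at 828 and 796 CPM in the libraries labelled Jun-cKO, and the groups overlapped. Its fold change was 0.994 with a 95% interval from 0.838 to 1.18 (adjusted p = 0.96), so a change of more than about that size lies outside the interval. Mcl1 lies on chromosome 3 (95658788 to 95663176, plus strand, GRCm38) and has 3 exons. Per kilobase of the authors' gene length, Mcl1 held 81.8% and 78.8% of the summed level of the 7 anti-apoptotic genes in Jun-Ctrl and 86.2% and 85.3% in the libraries labelled Jun-cKO. Levels per length are approximate here, because the authors' lengths cover whole gene models and RNA amplification can favour some parts of a transcript.

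Bcl2l1, which encodes Bcl-xL and ranked next among the anti-apoptotic genes, fell. Its level was 87.3 and 109 CPM in Jun-Ctrl and 72.5 and 62.2 CPM in the libraries labelled Jun-cKO. Both labelled libraries lay below both controls, a 1.44-fold fall (log2 fold change -0.53, SE 0.13, adjusted p = 0.000668 by edgeR). Its share of the anti-apoptotic level per length went from 9.76% and 11.2% to 8.23% and 7.27%. Bcl2l1 lies on chromosome 2 (152780668 to 152831728, minus strand), with a transcript GC content of 55.9%. The call ended after a correction for transcript GC content (log2 fold change -0.26, adjusted p = 0.0656) and without Jun-Ctrl replicate 2 (-0.39, adjusted p = 0.0655).

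Bcl2 itself, the founding member of the family, was at 35.1 and 31.4 CPM in Jun-Ctrl and at 32.0 and 28.2 CPM in the libraries labelled Jun-cKO. Bcl2l2, which encodes Bcl-w, was at 28.1 and 34.4 CPM against 24.2 and 29.4 CPM. Neither passed, with adjusted p-values of 0.464 and 0.267, and in both genes the groups overlapped.

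The Bcl2a1 genes, near-identical copies known mainly from blood cells, were weakly detected and lower. Bcl2a1a was at 2.12 and 3.21 CPM in Jun-Ctrl and at 0.328 and 0.738 CPM in the libraries labelled Jun-cKO, from 35, 21, 5 and 5 counts. That is a 5.35-fold fall (log2 fold change -2.42, SE 0.51, adjusted p = 0.000166), and it passed under all 12 alternative fits that tested it. Bcl2a1b fell 2.03-fold, from 5.22 and 8.11 CPM to 2.36 and 4.43 CPM (adjusted p = 0.00564). The third copy, Bcl2a1d, was at 1.15 and 1.38 CPM against 0.590 and 0.886 CPM and did not pass (adjusted p = 0.213). Counting could split or drop reads that the copies share, so the value of each copy is uncertain. The Bcl2a1b call ended with DESeq2's test (adjusted p = 0.0725), on leaving out Jun-Ctrl replicate 2 (0.146) and without the labelled Jun-cKO replicate 1 (0.252). Of 14 tested leukocyte markers 12 were called lower too, while Adgre1 was not called and Gzma rose from 0 counts in both Jun-Ctrl libraries to 328 and 152. The summed level of the 18 listed genes was 539 and 536 CPM in Jun-Ctrl and 262 and 239.6 CPM in the libraries labelled Jun-cKO. Of that sum S100a9 alone held 225 and 208 CPM against 86.4 and 69.8 CPM. Among the 18 genes Ptprc, which encodes the sorted-out surface protein CD45, was at 8.49 and 7.96 CPM against 3.60 and 2.95 CPM, and the T cell gene Cd3e had 0 counts in all 4 libraries. Their part in the Bcl2a1 result was not tested, and in such sorted bulk samples fewer cells of a type and less RNA per cell cannot be told apart.

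**Figure D2:**
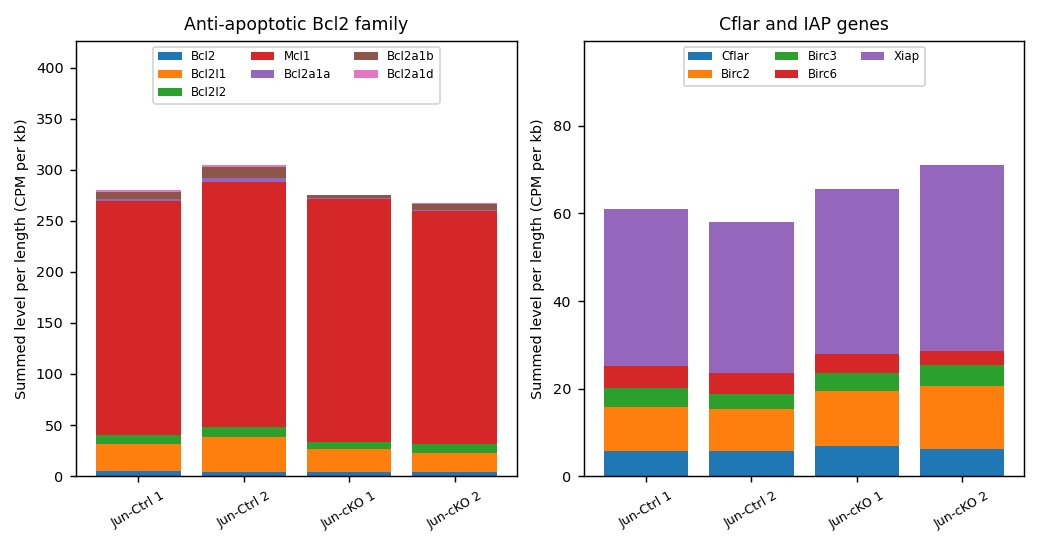
Summed level per gene length (CPM per kilobase) of the 7 anti-apoptotic Bcl2 family genes and of Cflar with the 4 IAP genes in each library, stacked by gene. Mcl1 makes up 78.8% to 86.2% of the left stacks and Xiap 57.7% to 59.9% of the right stacks.

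None of the 3 pore-forming genes was called. Bax, which permeabilises the outer mitochondrial membrane, was at 47.7 and 50.03 CPM in Jun-Ctrl and at 42.3 and 43.4 CPM in the libraries labelled Jun-cKO (log2 fold change -0.19, SE 0.13, adjusted p = 0.266). Bak1, its constitutively mitochondrial partner, was at 36.3 and 42.5 CPM against 37.9 and 27.2 CPM (adjusted p = 0.205). Bok, a relative with less settled regulation, was at 46.3 and 47.1 CPM against 41.1 and 35.7 CPM (adjusted p = 0.104). The groups did not overlap for Bax and Bok, as in 71.3% of all tested genes, and overlapped for Bak1. Bax has a GC-rich transcript (63.5%), and after GC correction its direction turned and it passed (log2 fold change 0.37, adjusted p = 0.0151). The directions of Bok and Bak1 turned too, to 0.22 and 0.09, without passing (adjusted p = 0.161 and 0.646). Bak1 passed as lower without the labelled Jun-cKO replicate 1 (-0.52, adjusted p = 0.0153).

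BH3-only genes went both ways, with 3 lower and 1 higher of 7 tested, beside 22.5% lower and 19% higher of all tested genes. Bik was the most abundant of them per length, at 72.5 and 80.9 CPM in Jun-Ctrl and 62.6 and 44.6 CPM in the libraries labelled Jun-cKO, a 1.41-fold fall (adjusted p = 0.00257 by edgeR). Bad, whose product is inactivated by survival-kinase phosphorylation, fell 1.35-fold from 21.3 and 23.9 CPM to 17.95 and 14.6 CPM (adjusted p = 0.0351). Bmf, whose product binds the cytoskeleton until cells detach, fell 1.58-fold from 7.16 and 7.65 CPM to 4.85 and 4.28 CPM (adjusted p = 0.028). In the other direction, the p53 target Bbc3, which encodes Puma, rose 1.73-fold from 2.73 and 1.99 CPM to 4.59 and 3.84 CPM (adjusted p = 0.0393). For these 4 genes no library of one group crossed into the range of the other, as in 71.3% of all tested genes.

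None of the 4 BH3-only calls held under every alternative. After GC correction Bik was at -0.06 and Bad at -0.11 on the log2 scale (adjusted p = 0.718 and 0.594), Bmf at -0.52 (0.0818), and Bbc3 rose further, to 1.36 (0.00081). Bik also ended without Jun-Ctrl replicate 2 (adjusted p = 0.0663) and without the labelled Jun-cKO replicate 2 (0.0905). Bad ended without either Jun-Ctrl library (0.0733 or 0.171) and without the labelled Jun-cKO replicate 2 (0.185). Bmf ended without any one of the 4 libraries (0.0564 to 0.111), and Bbc3 without Jun-Ctrl replicate 1 or 2 (0.0897 or 0.227) or the labelled Jun-cKO replicate 1 (0.235). DESeq2 did not call Bad, Bmf or Bbc3 (0.122, 0.151 and 0.214), and Bbc3 was also lost with upper-quartile scaling or library totals (0.0512 or 0.0588).

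Bcl2l11, which encodes the endothelial death inducer Bim, was nearly level at 32.9 and 33.0 CPM in Jun-Ctrl and 32.9 and 34.1 CPM in the libraries labelled Jun-cKO, and its fold lay between 0.830 and 1.24 by the 95% interval. Bid, which links Casp8 to mitochondria, was at 31.7 and 27.4 CPM against 30.5 and 27.2 CPM (adjusted p = 0.856). Pmaip1, which encodes the Mcl1 antagonist Noxa, was at 5.40 and 4.74 CPM against 6.29 and 5.76 CPM (adjusted p = 0.472). None of these 3 was called in any alternative fit. Hrk had 1 count in Jun-Ctrl replicate 1 and 0 in the other libraries and was not tested. Bcl2l13, a mitochondrial family member also known as a mitophagy receptor, was at 53.5 and 51.4 CPM against 62.3 and 64.4 CPM and did not pass (log2 fold change 0.27, adjusted p = 0.084). Bid and Bcl2l13 lie on opposite strands of chromosome 6 and overlap by 913 bases, so reads in that overlap cannot be assigned without strand. Other listed genes also overlap an annotated gene. Among them are Bad (Gpr137) and Birc6 (Gm26749) on the opposite strand, and Bcl2a1b (Gm29094) and Bax (Gm45808) on the same strand.

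Of 5 tested genes of the apoptosome and mitochondrial release, 3 were called higher and 1 lower, beside 19% and 22.5% of all tested genes. Apaf1, the scaffold of the apoptosome, was at 49.2 and 46.5 CPM in Jun-Ctrl and at 69.3 and 97.7 CPM in the libraries labelled Jun-cKO, a 1.72-fold rise (log2 fold change 0.78, SE 0.14, adjusted p = 6.7e-06). Aifm1, a mitochondrial flavoprotein that can act as a death effector in the nucleus, rose 1.63-fold from 48.3 and 39.01 CPM to 65.9 and 79.0 CPM (adjusted p = 3.02e-05). Both passed in all 13 alternative fits, with log2 fold changes from 0.53 to 1.03 for Apaf1 and from 0.55 to 0.88 for Aifm1. Apaf1 lies on chromosome 10 (90989311 to 91082770, minus strand, 27 exons) and Aifm1 on chromosome X (48474944 to 48513563, minus strand, 16 exons). The 2 libraries labelled Jun-cKO differed more for Apaf1 than the 2 controls, with an SD of 20.1 against 1.89 CPM.

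Cycs, which encodes cytochrome c, rose 1.30-fold from 65.9 and 63.0 CPM to 86.6 and 81.5 CPM (log2 fold change 0.38, SE 0.12, adjusted p = 0.00916). The groups were apart, as in 71.3% of all tested genes, but the call ended after GC correction (0.18, adjusted p = 0.195). It also ended without either Jun-Ctrl library (0.0649 or 0.122) and without the labelled Jun-cKO replicate 1 (0.0503). Diablo, which encodes the IAP antagonist Smac, was at 27.4 and 28.3 CPM against 29.7 and 22.1 CPM and did not pass (adjusted p = 0.741). Htra2, a mitochondrial protease that also binds IAPs, was barely detected and fell 4.75-fold, from 23 and 8 counts (1.39 and 1.22 CPM) to 4 and 2 counts (0.262 and 0.295 CPM; adjusted p = 0.00328). That call ended in DESeq2 (adjusted p = 0.0901) and without Jun-Ctrl replicate 1 (0.119). Htra2 on chromosome 6 (83051266 to 83055273, minus strand) overlaps the opposite-strand genes Loxl3 and Aup1, which bears on how its reads could be assigned. Endog, a mitochondrial nuclease, had 5, 1, 7 and 0 counts and was not tested.

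All 4 apoptotic caspases on the list had higher means in the libraries labelled Jun-cKO. Of these 2 passed, beside 19% of all tested genes called higher. Casp2, a caspase activated on the PIDDosome platform, showed the smallest p of the 36 tested genes. It went from 37.9 and 33.2 CPM to 62.5 and 67.0 CPM, a 1.80-fold rise (log2 fold change 0.85, SE 0.13, adjusted p = 1.14e-06). Casp8, the initiator that death receptors engage, rose 1.52-fold from 33.3 and 32.0 CPM to 50.5 and 48.7 CPM (log2 fold change 0.60, SE 0.14, adjusted p = 0.000376). Neither gene's groups came near each other, and both passed in all 13 alternative fits, with log2 fold changes from 0.74 to 0.95 for Casp2 and from 0.51 to 0.63 for Casp8. Casp2 lies on chromosome 6 (42264985 to 42282508, plus strand, 11 exons) and Casp8 on chromosome 1 (58795374 to 58847503, plus strand, 9 exons).

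Casp9, the caspase that the apoptosome activates, was at 30.3 and 27.4 CPM against 39.8 and 32.8 CPM (log2 fold change 0.34, SE 0.15, adjusted p = 0.0612). It passed after GC correction (0.47, adjusted p = 0.00668) and without the labelled Jun-cKO replicate 2 (0.46, adjusted p = 0.0183). Casp6, an effector caspase that cleaves lamin A, was at 57.5 and 56.8 CPM against 60.4 and 75.9 CPM (log2 fold change 0.24, adjusted p = 0.129). It passed without the labelled Jun-cKO replicate 1 (0.41, adjusted p = 0.0174). Neither gene's groups overlapped, as in 71.3% of all tested genes.

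Casp1, Casp4 and Casp12, a cluster of inflammatory-type caspase genes, lie side by side on the plus strand of chromosome 9, 1.6 and 8.6 kb apart. Casp4, which senses cytosolic lipopolysaccharide and is also called caspase-11, rose 1.35-fold from 14.0 and 13.3 CPM to 18.2 and 19.0 CPM (adjusted p = 0.0414). This call was the least stable of the 16, passing in 4 of 13 alternative fits. It ended with GC correction (adjusted p = 0.213), with DESeq2 (0.155), with upper-quartile scaling, library totals or the filter of 50 counts (0.0645 to 0.0806), and without Jun-Ctrl replicate 1 or 2 (0.143 or 0.195) or the labelled Jun-cKO replicate 1 or 2 (0.0725 or 0.0909). Casp12 was at 1.33 and 0.918 CPM against 1.51 and 2.21 CPM (adjusted p = 0.327). Casp1, the interleukin-1 beta processing enzyme, had 11 and 4 counts in Jun-Ctrl and 17 and 6 in the libraries labelled Jun-cKO and was not tested. All 3 were higher in both labelled libraries than in both controls, but only Casp4 was called. The groups were also apart in 71.3% of all tested genes.

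Among the genes that restrain caspases, 1 rose and 1 fell of 5, beside 19% and 22.5% of all tested genes. Birc2, which encodes the ubiquitin ligase cIAP1, rose 1.37-fold from 35.1 and 32.6 CPM to 43.9 and 50.05 CPM (log2 fold change 0.46, SE 0.14, adjusted p = 0.00673). Its neighbour Birc3, 11.6 kb away on the same strand and encoding cIAP2, was at 11.6 and 10.1 CPM against 11.4 and 13.0 CPM (adjusted p = 0.631). Birc2 was apart between the groups, as 71.3% of all tested genes were, and Birc3 was not. The Birc2 call ended after GC correction (0.29, adjusted p = 0.0628), without Jun-Ctrl replicate 2 (0.102) and without the labelled Jun-cKO replicate 2 (0.0536).

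Birc6, a giant IAP with 73 exons on chromosome 17 (74528295 to 74703356, plus strand), fell 1.32-fold from 79.8 and 75.4 CPM to 66.3 and 50.2 CPM (log2 fold change -0.40, SE 0.13, adjusted p = 0.0103). The fall was larger after GC correction (-0.50, adjusted p = 0.00162) but did not pass without Jun-Ctrl replicate 1 (0.125) or without the labelled Jun-cKO replicate 2 (0.183). Xiap, the direct inhibitor of effector caspases, had the highest CPM of the 39 after Mcl1. It stood at 259 and 248 CPM against 273 and 307 CPM (log2 fold change 0.19, SE 0.12, adjusted p = 0.187), and was -0.09 after GC correction, its transcript having a GC content of 36.8%. Per length, Xiap made up 57.7% to 59.9% of the summed level of these 5 genes in the 4 libraries.

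Cflar, which encodes the Casp8 blocker c-FLIP, lies 36.5 kb upstream of Casp8 on the same strand of chromosome 1. It was at 47.5 and 48.3 CPM in Jun-Ctrl and 56.6 and 51.2 CPM in the libraries labelled Jun-cKO and did not pass (log2 fold change 0.18, SE 0.13, adjusted p = 0.284). Set against Casp8 per length, the Cflar level in Jun-Ctrl was 0.495 and 0.524, and it was 0.388 and 0.364 in the libraries labelled Jun-cKO, a ratio given as a description with no test. Dffa and Dffb, which encode the inhibitor and the nuclease of DNA fragmentation factor, did not pass. Dffa was at 29.6 and 37.8 CPM against 32.6 and 31.4 CPM (adjusted p = 0.825), and Dffb at 10.7 and 12.2 CPM against 9.57 and 8.27 CPM (adjusted p = 0.211). Dffa exceeded Dffb per length in every library, by 2.13 and 2.37 times in Jun-Ctrl and 2.61 and 2.92 times in the libraries labelled Jun-cKO.

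**Figure D3:**
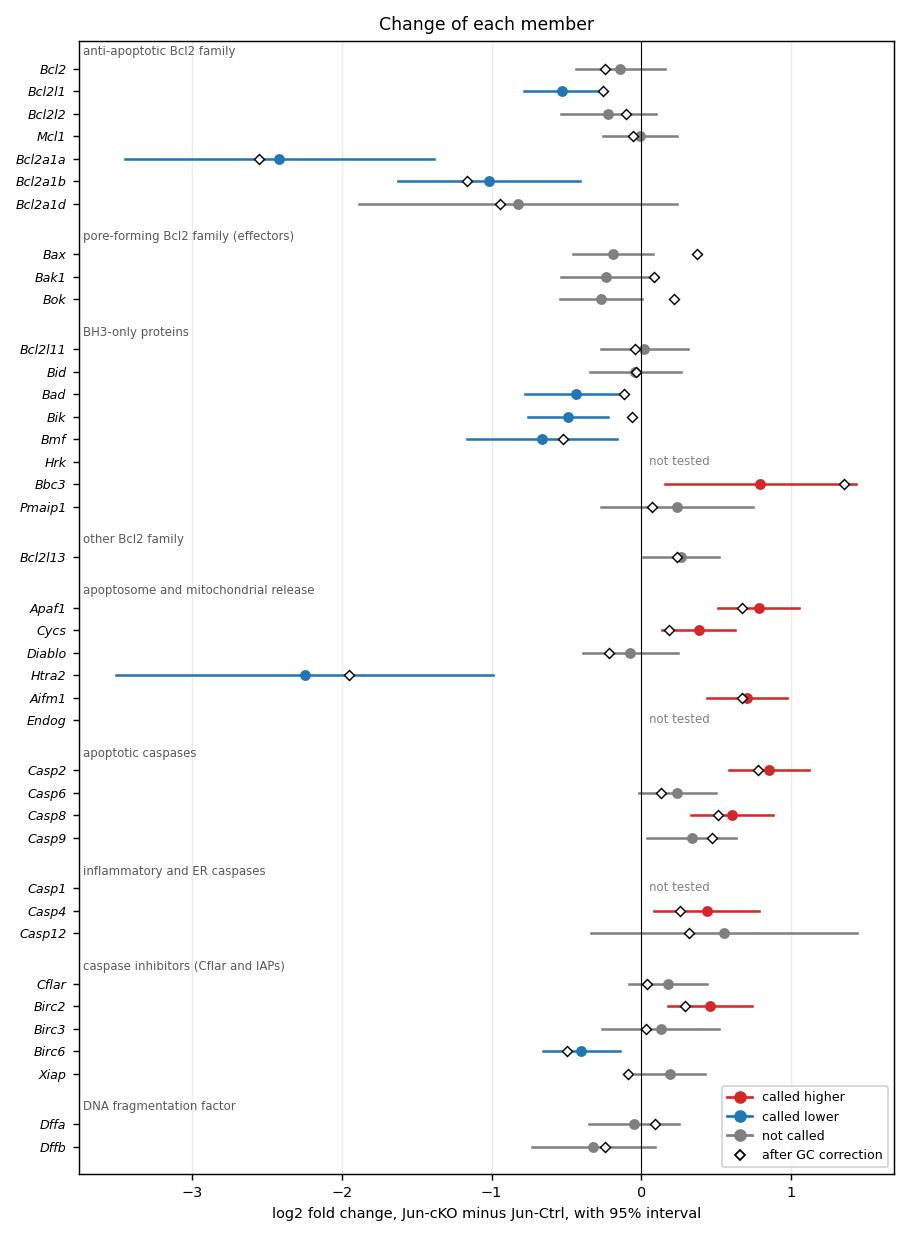
Log2 fold change of each gene, labelled Jun-cKO minus Jun-Ctrl, with its 95% interval, in red where called higher, blue where called lower and grey where not called; open diamonds give the value after correction for GC content. Apaf1, Aifm1, Casp2 and Casp8 stay between 0.51 and 0.78 after correction. Bik and Bad move to -0.06 and -0.11, and Bax, Bok and Bak1 cross 0.

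Fold changes over all genes varied with transcript GC content (rho = -0.336 by Spearman's method across 12188 genes, not independent of one another). Whether base composition itself shaped the values above was not tested. Over the 36 tested genes of the list rho was -0.310, given as a description since the points share the same 4 libraries. In the class of genes with the lowest GC content (up to 47.0%), 1193 of all 4063 genes were higher and 448 lower, while the 17 listed genes there gave 5 and 3 calls. In the class with the highest GC content (from 53.2%), 383 of 4063 were higher and 1583 lower, while the 11 listed genes there gave 1 and 5. The listed genes follow the order of all genes, with Bbc3 (65.2% GC) as the riser among GC-rich genes and Bcl2a1a, Bcl2a1b and Birc6 (44.1% to 46.4%) as the falls among GC-poor ones. After GC correction 7 of the 36 genes were higher (19.4%, beside 19.9% of all genes) and 4 lower (11.1%, beside 19.7%). The corrected risers were Casp2, Casp8, Casp9, Apaf1, Aifm1, Bbc3 and Bax, and the corrected falls Bcl2a1a, Bcl2a1b, Htra2 and Birc6.

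**Figure D4:**
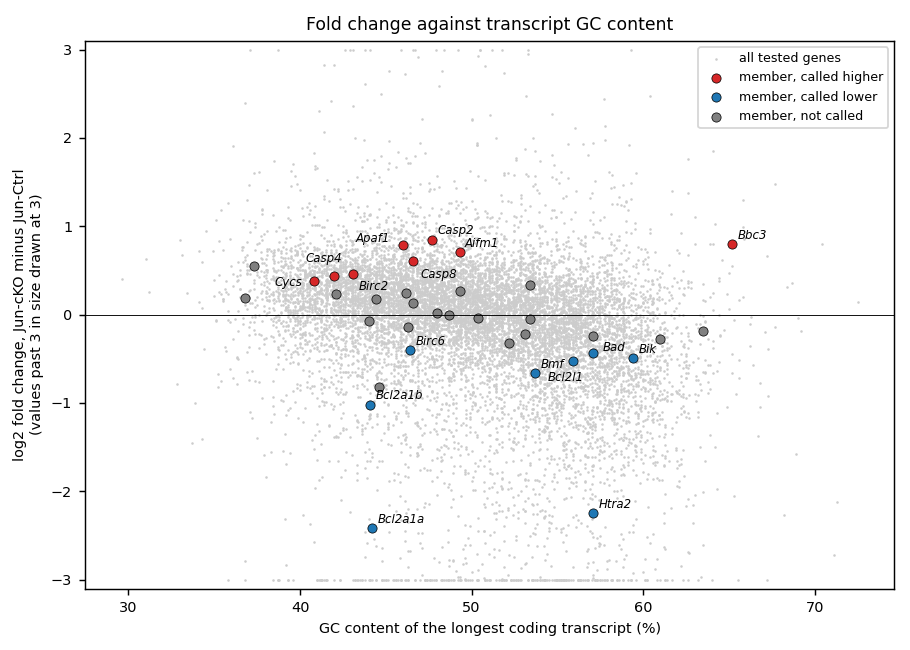
Log2 fold change against the GC content of the longest coding transcript (%), for all tested genes in grey and for the 36 tested genes of the list in colour, with called genes named. Bik, Bad, Bcl2l1 and Bmf sit among GC-rich genes below 0, and Cycs, Casp4 and Birc2 among GC-poor genes above 0.

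Of the 16 calls, 5 passed in every alternative fit that tested the gene: Casp2, Casp8, Apaf1, Aifm1 and Bcl2a1a. Changed thresholds are left out of these counts, and a minimum log2 fold change of 1 left 0 listed genes higher and 3 lower. GC correction ended 7 calls and DESeq2 ended 6. Of the 20 genes without a call, 4 passed in at least 1 alternative: Bax, Bak1, Casp6 and Casp9.

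**Figure D5:**
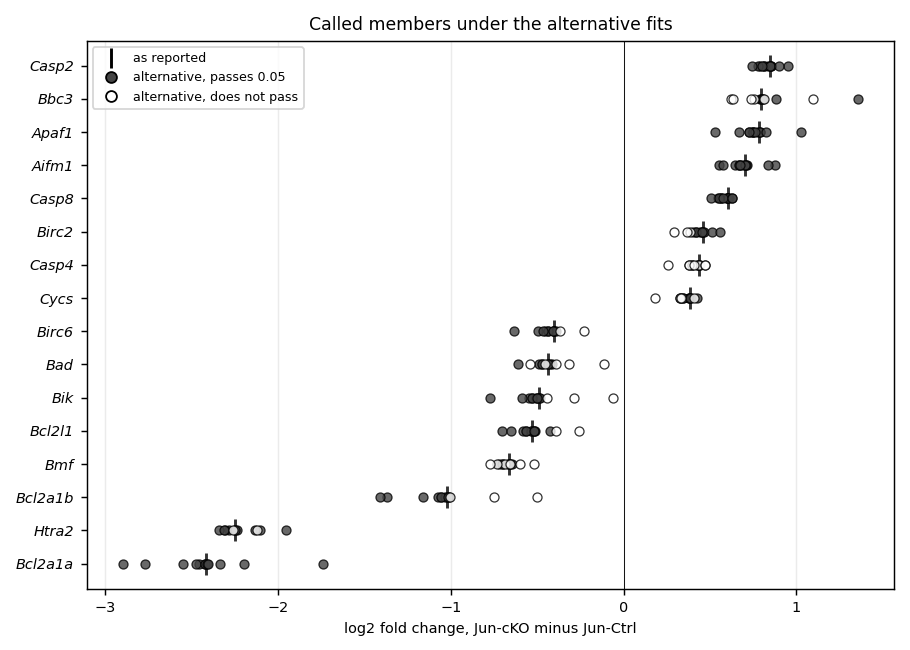
Log2 fold change of the 16 called genes as reported (vertical bar) and in up to 13 alternative fits, filled where the adjusted p was under 0.05 and open where it was not. Casp2, Casp8, Apaf1, Aifm1 and Bcl2a1a have filled points only, while Casp4 has 9 open points.

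Because Jun is the subunit that the cross targets, the promoters of the listed genes were searched for the letters that AP-1 binds. RefSeq promoter windows of 300 bases (GRCm38.p6, 250 before to 50 after a start) were matched for 36 of the 39 genes, 48 windows in all. The AP-1 heptamer, TGAGTCA or its reverse complement TGACTCA, was in 0 of the 48 windows and in 5.2% of all 32851 windows. The longer element TGACGTCA, the cyclic AMP response element that Jun and Atf partners can also bind, was in 2 of the 48 (4.17%) and in 1.79% of all windows. Those 2 windows belong to Birc2 (chr9:7837008-7837307, minus strand) and Cycs (chr6:50566520-50566819, minus strand). Both genes were called higher above, but neither call held after GC correction (adjusted p = 0.0628 and 0.195). The windows are shown 5′ to 3′ with the element in capitals. The element starts 35 bases before the Birc2 start and 169 bases before the Cycs start.
Birc2: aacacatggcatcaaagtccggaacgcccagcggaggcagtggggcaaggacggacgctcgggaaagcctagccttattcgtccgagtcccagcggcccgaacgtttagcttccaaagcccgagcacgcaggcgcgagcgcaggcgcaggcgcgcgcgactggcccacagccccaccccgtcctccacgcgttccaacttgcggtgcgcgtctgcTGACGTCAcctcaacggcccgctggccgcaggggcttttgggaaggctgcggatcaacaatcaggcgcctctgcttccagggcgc
Cycs: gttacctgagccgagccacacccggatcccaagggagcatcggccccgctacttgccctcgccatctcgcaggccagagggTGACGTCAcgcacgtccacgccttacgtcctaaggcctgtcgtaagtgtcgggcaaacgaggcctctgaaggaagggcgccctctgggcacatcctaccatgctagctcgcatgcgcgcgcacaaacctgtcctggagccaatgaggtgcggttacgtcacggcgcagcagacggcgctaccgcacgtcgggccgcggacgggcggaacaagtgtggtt
These matches describe letters in a window and say nothing of binding in these cells, and Birc2 has a further annotated start whose window holds no match.

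Other genes of the death pathways were taken from a list of 69 names, of which 68 were in the table and 58 were tested. Of these 17 rose and 11 fell, 48.3% of those tested beside 41.5% of all genes, with a median log2 fold change of 0.12. The total of 28 became 16 or 14 when Jun-Ctrl replicate 1 or 2 was left out, and 18 with DESeq2. The tumour necrosis factor receptor gene Tnfrsf1a rose 1.93-fold, the hypoxia-induced Bnip3 2.10-fold, Faim, an inhibitor of Fas-driven death, 1.44-fold and the weakly detected lipid droplet gene Cidea 3.81-fold. In the other direction the chaperone gene Bag6 fell 2.87-fold, the kinase gene Dapk3 2.82-fold, the apoptosis inhibitor gene Aven 1.74-fold, Trp53, which encodes p53, 1.57-fold and Acin1, a chromatin condensation factor, 1.54-fold. Adjusted p-values of these 9 genes ran from 1.41e-13 for Bag6 to 0.00245 for Trp53. Bag6, Dapk3, Trp53 and Acin1 (54% to 63.3% GC) lie in the highest GC class, where 1583 of 4063 genes were lower and 383 higher. Tnfrsf1a and Cidea (55.9% and 55.6%) lie there too, though they rose. After GC correction 29 of the 58 genes were called, and corrected values of single genes are not given here.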

How the data were processed

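The authors deposited unnormalised read counts for each gene, with a gene length in bases per the file headers. Per the submitters' processing notes, which give no roles, the build was mm10 and the tools edgeR 3.28.1, featureCounts 1.6.4 and STAR 2.7.2a. For annotation and strand setting nothing is stated, and the labels' protocols name a library kit that does not mark strand, after RNA amplification.

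The test was edgeR 4.0.16 (R 4.3.3) with TMM, filterByExpr, glmQLFit and glmQLFTest on all 4 libraries, with no block. It covered 12656 genes, and a call needed an adjusted p (Benjamini-Hochberg) under 0.05. Standard errors are the fold change over the root of F. Alternatives were DESeq2 1.42.0, limma-voom 3.58.1, other scalings, filters and thresholds, a block, each library left out, and a loess GC offset (span 0.5) from GENCODE M21 transcripts (GRCm38), which covered 96.3% of tested genes. The test was checked on simulated counts. Replicate libraries differed beyond sampling noise (median chi-square per gene 1.27 in Jun-Ctrl and 1.59 in Jun-cKO, against 0.455). The members, lists and alternatives were chosen with earlier results of these data known. All members are named, and of other death genes the 5 smallest p in each direction, of which 1 is not reported here. Of the marker lists, mesenchymal genes were 9 lower and 1 higher of 13 tested, mesothelial 1 and 1 of 3, blood endothelial 5 and 5 of 13, lymphatic 2 and 3 of 9, erythroid 0 tested, and dissociation genes 5 and 1 of 15. Floors of 3 counts cover counting error only, while the 95% intervals of fold changes come from the quasi-likelihood fit and include the spread between libraries.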

Additional observations from a re-analysis of the deposited data

How the results depend on the processing

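Over the 36 tested genes, 8 were higher and 8 lower as reported. The DESeq2 Wald test gave 4 lower and GC correction 4 lower, and a minimum log2 fold change of 1 left 0 higher and 3 lower. Leaving out 1 library gave 4 to 7 higher and 3 to 7 lower, the fewest without Jun-Ctrl replicate 2. Over all genes the total of 5251 became 1670 with the fold minimum and 3206 to 4928 with 1 library left out. The 28 calls among the other death genes became 18 with DESeq2, 5 with the fold minimum and 14 to 26 with 1 library left out. Bax reversed after GC correction, to a log2 fold change of 0.37. The other settings kept each count within 1.5 times.

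With the replicate mark as a replicate block, 8 genes of the list were higher and 8 lower, and 5426 genes were called in all. The mark is no number, and the deviations of the marked libraries correlated at 0.073 over genes. That value shows little shift shared by the marked libraries, but it cannot tell whether the libraries were prepared in pairs. Depth limits Hrk, Endog and Casp1, which were too weak to test, and Htra2, Casp12, Bbc3 and the Bcl2a1 copies, whose intervals are wide. Of the 10 highest genes per length, 7 were also among the 10 highest without length.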
